A study of Rattus norvegicus with 6 samples.

Results

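Collagens are secreted or membrane-bound proteins built from 3 polypeptide chains wound into a triple helix, and each chain is encoded by a gene of its own. The genes whose symbol has the form of a collagen chain (Col, a type number, the letter a and a chain number) were taken from a gene table of rat dorsal root ganglion (DRG), the cluster of sensory nerve cell bodies beside the spinal cord. They numbered 42 of the 27943 gene symbols in the table and lay on 50 of its 43350 entries. A symbol with several entries was represented by its protein-coding entry, or by the one with the most counts where that did not decide.

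Male Sprague-Dawley rats received either chronic constriction injury (CCI), 4 loose ligatures around the left sciatic nerve, or a sham operation that exposed the nerve without tying it. Rats were 6 to 8 weeks old on acquisition and were kept for further weeks before surgery. The left L4 to L6 ganglia were collected on day 11 from 1 rat per library, 3 CCI and 3 Sham, after rats had been retained for their behavioural responses. The labels give the treatment of Sham rats as none and speak of a pooled sample, whereas the methods describe nerve exposure and single rats.

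In a peripheral ganglion, fibrillar collagens form the tensile fibrils of the capsule and of the endoneurium, and fibroblasts are their main producers. Type IV collagens form the sheet-like network of the basement membrane that surrounds Schwann cells, satellite glia and blood vessels. The remaining collagens decorate fibrils, link fibrils to membranes, form beaded filaments or span the plasma membrane. The question was how the transcripts of these classes stood 11 days after nerve constriction relative to sham surgery.

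The 6 libraries held between 75423546 and 87615743 counts, and collagen genes took 0.335%, 0.448% and 0.424% of them in CCI libraries 1, 2 and 3 and 0.432%, 0.403% and 0.418% in Sham libraries 1, 2 and 3. Values for CCI and Sham are given in this library order throughout, as FPKM, fragments scaled by transcript length and library total. The neuronal injury gene Atf3 was at 34.9, 20.3 and 16.2 FPKM in CCI and 1.89, 2.36 and 2.11 FPKM in Sham, so every CCI library stood above every Sham library, and its log2 fold change was 3.47 (edgeR's quasi-likelihood test, Benjamini-Hochberg adjusted p = 0.0296). The neuronal marker Tubb3 was abundant in all 6 libraries. Of 9 sensory neuron markers 0 were called, and the neurofilament gene Nefl, with 872, 968 and 920.0 FPKM in CCI and 1327, 1371 and 1364 FPKM in Sham, stood lower in every CCI library than in any Sham library, at -0.57 on the log2 scale (edgeR adjusted p = 0.0457), short of the limit on the fold used below. Skeletal muscle markers summed to 395 CPM, counts scaled by TMM-adjusted library size, in Sham 1 and to between 8.88 and 50.7 CPM in the other 5 libraries.

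No collagen gene met the limits of the comparison. Of the 42 genes, 35 averaged 0.5 FPKM or more over the 6 libraries and were tested. A gene was called where its unadjusted p was under 0.05 and its log2 fold change was at least 0.58 in size. In edgeR's quasi-likelihood test, 0 of the 35 were called higher in CCI, where 2.57% of all 26663 tested entries were, and 0 were called lower, where 1.26% were. At an unadjusted p under 0.05 with no limit on the fold there were 2, Col2a1 and Col16a1, of 35 against 10.7% of all entries. At an adjusted p under 0.05 the test gave 0 against 0.0938% of all entries, and DESeq2 gave 1, Col2a1, against 3.07% of the entries it tested. DESeq2 had 3 and limma on log2(FPKM + 0.1) had 2 collagen genes at an unadjusted p under 0.05. The share of all entries at that limit was not computed for either method, so these counts stand without a background.

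The collagen genes also differed from one another in how closely they were measured. The median of the 35 log2 fold changes was 0.03, beside 0.01 over all tested entries, and the median size regardless of sign was 0.13, beside 0.16. Estimates were above 0 for 20 genes and below 0 for 15. For 19 of the 35 the 95% interval lay wholly between -0.58 and 0.58, and for the other 16 it reached past one of these limits, so that a change of that size lay within the error of 3 libraries a group. For 33 of the 35 the interval lay within -1 and 1, the exceptions being Col4a3 and Col8a1.

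**Figure D1:**
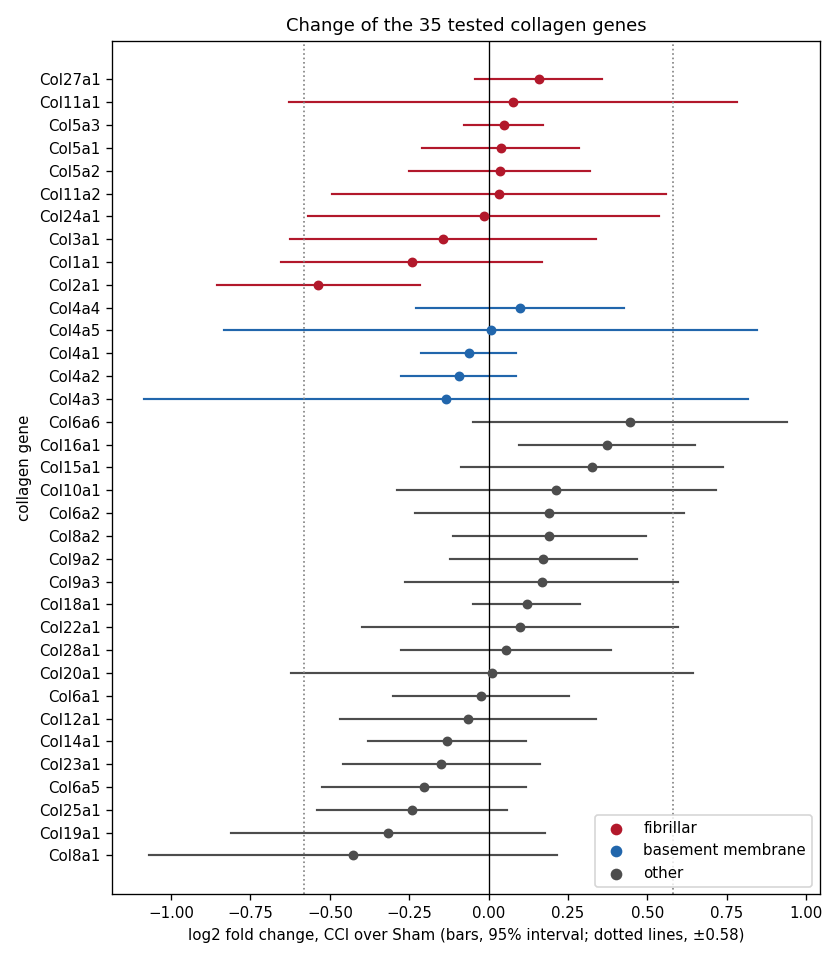
The log2 fold change of CCI over Sham for the 35 tested collagen genes, ordered within class, with 95% intervals as bars and dotted lines at -0.58 and 0.58. No point lies beyond a dotted line, and the intervals of Col2a1 and Col16a1 alone leave out 0.

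Mean levels ran from 0.0393 FPKM for Col6a4 to 173 FPKM for Col3a1. By mean FPKM, which is per length, 3 genes were at 50 or more, 9 between 10 and 50, 18 between 1 and 10, 5 between 0.5 and 1, and 7 under 0.5. Col3a1 gave 28.5% of the summed collagen FPKM, Col1a1 23.8%, Col5a3 9.41% and Col4a1 6.45%. In the order of mean level Col3a1 and Col1a1 overlapped in range across the 6 libraries, whereas Col1a1 stood clear of Col5a3, Col5a3 of Col4a1, and Col4a1 of Col4a2 in every library. From Col4a2 each gene overlapped the next in the order down to Col12a1, which stood clear of Col28a1. The symbols Col1a2, Col6a3 and Col21a1 were not matched in the table and were not analysed here.

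**Figure D2:**
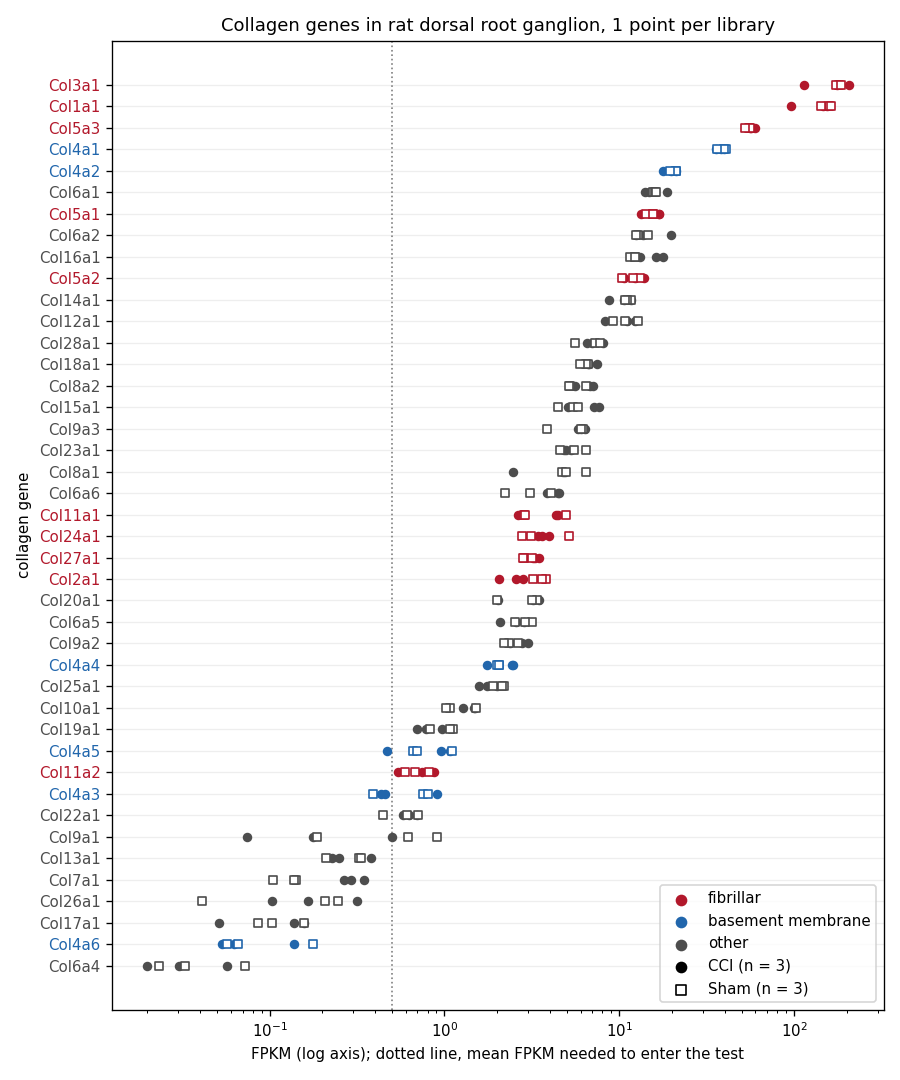
FPKM of the 42 collagen genes on a log axis, 1 point per library, filled circles for CCI and open squares for Sham, with names coloured by class. Col3a1 and Col1a1 lead, Col5a3 and Col4a1 follow, and 7 genes have a mean left of the dotted line at 0.5.

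The fibrillar collagens gave 63.4%, 69.1% and 69.3% of the collagen FPKM in CCI and 69.3%, 69.4% and 71.4% in Sham. All 10 were tested, with a median log2 fold change of 0.03 and a range of -0.54 to 0.16. Their summed level was 303, 457 and 429 FPKM in CCI and 439, 411 and 442 FPKM in Sham, so that CCI 1 was the lowest library and the other 5 lay close together.

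Col1a1 (chr10:82745801-82762789, plus strand, in the coordinates of the deposited table, which follow the authors' rat genome V101) encodes a chain of type I collagen, the main fibril former of connective tissue. It was at 96.5, 147 and 153 FPKM in CCI and 159, 143 and 162 FPKM in Sham. CCI 1 lay below all other libraries, and the other 2 CCI libraries lay within the Sham range. The means were 132 ± 31.1 FPKM in CCI against 155 ± 10.2 FPKM in Sham (SD, n = 3), and the log2 fold change was -0.24 (SE 0.17, 95% interval -0.65 to 0.17, edgeR adjusted p = 0.702). Without CCI 1 it was -0.06.

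Col3a1 (chr9:52023295-52059217, plus strand) encodes the chain of type III collagen, which forms thin reticular fibrils together with type I. Its entry also carries a microRNA gene, AABR07067556, so its counts cannot be assigned to Col3a1 alone. It was at 113, 205 and 177 FPKM in CCI and 181, 173 and 186 FPKM in Sham. CCI 1 was again lowest and CCI 2 highest of the 6 libraries, and the log2 fold change of -0.14 (SE 0.20, interval -0.63 to 0.34, edgeR adjusted p = 0.871) became 0.07 without CCI 1. The ratio of Col1a1 to Col3a1 in FPKM was 0.812 ± 0.0824 in CCI and 0.858 ± 0.0296 in Sham (SD, n = 3), with overlapping groups.

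The 3 chains of type V collagen, which nucleates fibrils and sets their diameter, differed in level but not detectably between groups. Col5a3 (chr8:21786324-21831668, minus strand), the chain of this type reported from Schwann cells, was the third most abundant collagen gene. It was at 55.5, 59.4 and 56.6 FPKM in CCI and 55.2, 56.2 and 52.7 FPKM in Sham, a spread of a few FPKM among all 6 libraries. Its log2 fold change was 0.05 (SE 0.05, edgeR adjusted p = 0.819), and its interval of -0.08 to 0.17 was the narrowest among the fibrillar genes. Col5a1 was at 13.3, 16.9 and 17.0 FPKM in CCI and 15.6, 14.2 and 15.5 FPKM in Sham. Col5a2, whose gene lies tail to tail with Col3a1 with 33293 bases between them in the table's coordinates, was at 10.6, 13.8 and 12.3 FPKM in CCI and 13.1, 11.9 and 10.4 FPKM in Sham. Both overlapped between groups, and the ratio of Col5a3 to Col5a1 was 3.68 ± 0.445 in CCI and 3.63 ± 0.292 in Sham (SD, n = 3).

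Col2a1 (chr7:139454991-139484204, minus strand), the main collagen of cartilage, was scarce in the ganglion and was the collagen gene with the lowest p. It was at 2.05, 2.81 and 2.55 FPKM in CCI and 3.78, 3.21 and 3.63 FPKM in Sham. Every CCI library lay below every Sham library, with means of 2.47 ± 0.387 FPKM in CCI against 3.54 ± 0.297 FPKM in Sham (SD, n = 3). The log2 fold change was -0.54 (SE 0.13, interval -0.86 to -0.22, unadjusted p = 0.00581, adjusted p = 0.243 in edgeR's quasi-likelihood test), short of the fold limit and of the adjusted threshold. DESeq2 gave -0.54 with an adjusted p of 0.0195. Over the 15 alternative settings fitted to it, its lowest and highest log2 fold changes were -0.64 and -0.39, and without both CCI 1 and Sham 1 it was -0.38 (edgeR unadjusted p = 0.0294).

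Markers of cartilage and bone were examined beside Col2a1. Of 10 listed genes 6 were tested, and 1, Hapln1, a link protein of hyaluronan matrices that neurons also make, was lower in CCI, with 3.03, 3.16 and 3.21 FPKM in CCI and 7.13, 6.90 and 7.16 FPKM in Sham (log2 fold change -1.19, edgeR adjusted p = 0.00453). Acan, the large cartilage proteoglycan, was at most 0.233 FPKM, and Matn1, which marks cartilage, had 0 counts in 5 libraries. The whole list summed to 786, 616 and 479 CPM in CCI and 569, 520 and 569 CPM in Sham, ranges that overlapped, and most of this was Spp1, at 752, 582 and 446 CPM in CCI and 514, 464 and 513 CPM in Sham. The other 9 genes summed to 33.9, 34.7 and 33.1 CPM in CCI and 54.8, 55.7 and 55.9 CPM in Sham, and much of that was Hapln1, at 16.9, 17.5 and 17.8 CPM in CCI and 39.7, 38.8 and 40.5 CPM in Sham. The 6 tested genes of the list had a median log2 fold change of 0.12, with 3 estimates above 0. The part of these markers in the Col2a1 values was not tested.

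The remaining fibrillar chains overlapped between groups. Col11a1, a partner of type II and type V chains, was at 4.47, 4.35 and 2.63 FPKM in CCI and 2.85, 2.90 and 4.98 FPKM in Sham. Col11a2 was at 0.870, 0.542 and 0.749 FPKM in CCI and 0.678, 0.813 and 0.595 FPKM in Sham. These 2 chains had wide intervals, -0.63 to 0.78 and -0.49 to 0.56. Col24a1, a minor fibrillar collagen, was at 3.62, 3.98 and 3.44 FPKM in CCI and 5.15, 3.14 and 2.76 FPKM in Sham, with Sham 1 highest. Col27a1, another minor fibrillar collagen, was at 3.30, 3.20 and 3.47 FPKM in CCI and 2.84, 2.81 and 3.18 FPKM in Sham, and its log2 fold change of 0.16 (SE 0.08, unadjusted p = 0.102, adjusted p = 0.582 in edgeR) was the highest estimate of the class.

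**Figure D3:**
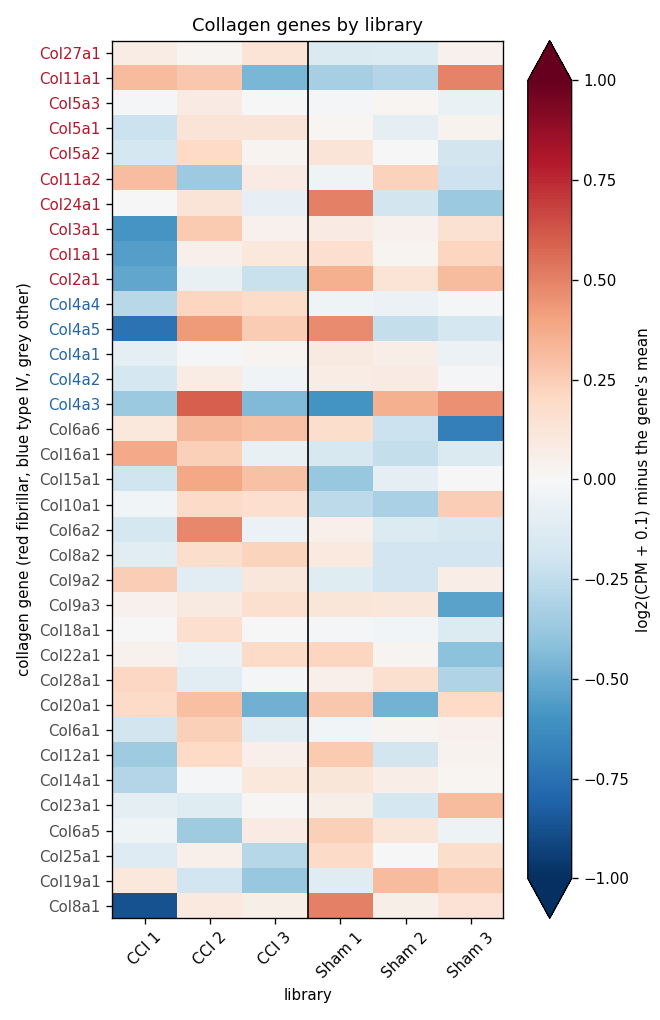
Log2(CPM + 0.1) of the 35 tested collagen genes minus the mean of each gene, by library, with fibrillar genes above, type IV genes next and the others below. CCI 1 is the lowest library for 13 genes, Col1a1, Col3a1 and Col8a1 among them, and Col2a1 is below its mean in all 3 CCI libraries and above it in all 3 Sham libraries.

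The basement membrane class was the 6 type IV genes, of which 5 were tested. Their median log2 fold change was -0.06, with a range of -0.13 to 0.10, and their summed level was 56.3, 63.7 and 63.1 FPKM in CCI and 65.8, 64.4 and 59.6 FPKM in Sham. The genes lie in head to head pairs, and the chains of the most widespread network come from the first pair, Col4a1 and Col4a2.

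Col4a1 (chr16:83522162-83632153, plus strand) was at 35.9, 38.0 and 39.5 FPKM in CCI and 40.9, 39.8 and 36.3 FPKM in Sham, and Col4a2 (chr16:83386385-83438561, minus strand) at 17.7, 21.1 and 19.7 FPKM in CCI and 21.2, 21.0 and 19.6 FPKM in Sham. The groups overlapped for both, and both genes were measured closely, with intervals of -0.21 to 0.09 and -0.27 to 0.09 around log2 fold changes of -0.06 and -0.09. The ratio of Col4a1 to Col4a2 was 1.94 ± 0.127 in CCI and 1.89 ± 0.0397 in Sham (SD, n = 3). Their log2 CPM had a Pearson r of 0.76 over the 6 libraries. Both genes were measured in the same libraries, which differed in condition and in tissue markers, and r takes in such differences. An entry antisense to Col4a1 held between 1246 and 1725 counts, and how strand was used in counting is not given in the sources used here.

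The start regions of this pair are shown because the genes are transcribed outward from a common stretch of DNA and were the basement membrane chains with the highest levels. In RefSeq's promoter windows (GRCr8, from 250 bases before to 50 after the annotated start), the starts were 77 bases apart and the windows shared 176 bases. In the coordinates of the deposited table, 83600 bases lay between the entries of the pair. Whether the counted entries begin at the RefSeq starts was not tested. The Col4a1 window lies at chr16:84885347-84885646 on the plus strand and that of Col4a2 at chr16:84885471-84885770 on the minus strand. Capitals mark a CCAAT box (CCAAT) or a GC box (GGGCGG) on either strand.
Col4a1: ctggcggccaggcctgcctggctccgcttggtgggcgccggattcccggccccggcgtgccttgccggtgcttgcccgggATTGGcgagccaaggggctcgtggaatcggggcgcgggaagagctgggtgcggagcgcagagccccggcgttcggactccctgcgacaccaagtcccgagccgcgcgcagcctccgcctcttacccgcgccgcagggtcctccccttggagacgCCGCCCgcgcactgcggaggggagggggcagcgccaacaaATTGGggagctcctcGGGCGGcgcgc
Col4a2: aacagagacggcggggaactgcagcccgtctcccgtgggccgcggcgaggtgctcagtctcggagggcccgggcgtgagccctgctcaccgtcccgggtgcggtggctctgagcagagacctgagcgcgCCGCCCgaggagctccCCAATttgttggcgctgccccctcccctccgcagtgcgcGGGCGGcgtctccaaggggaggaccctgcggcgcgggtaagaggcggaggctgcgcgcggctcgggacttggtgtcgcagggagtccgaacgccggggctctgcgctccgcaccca

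The second pair, Col4a3 and Col4a4, encodes chains of the network known from kidney glomerulus and synaptic basement membranes. Col4a3 was at 0.456, 0.910 and 0.436 FPKM in CCI and 0.388, 0.755 and 0.807 FPKM in Sham, and Col4a4 at 1.74, 2.47 and 2.43 FPKM in CCI and 2.05, 2.00 and 2.06 FPKM in Sham. Their log2 CPM had a Pearson r of 0.31 over the 6 libraries and their ratio ran from 0.180 to 0.392, and the interval of Col4a3 (-1.08 to 0.82) was the widest of any tested collagen gene. Their annotated starts were 413 bases apart in GRCr8, and 13946 bases lay between their entries in the table's coordinates. Col4a5 on the X chromosome was at 0.469, 1.07 and 0.958 FPKM in CCI and 1.11, 0.663 and 0.692 FPKM in Sham, with CCI 1 lowest, and its head to head partner Col4a6, at 0.0629, 0.139 and 0.0536 FPKM in CCI and 0.177, 0.0570 and 0.0662 FPKM in Sham, was below the level needed for testing.

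The other 26 genes, of which 20 were tested, had a median log2 fold change of 0.08 and a range of -0.43 to 0.45. Type VI collagen forms beaded filaments around cells and in the endoneurium. Its chain Col6a1 was at 13.9, 18.8 and 14.9 FPKM in CCI and 15.6, 16.1 and 16.2 FPKM in Sham, and Col6a2 at 12.5, 19.8 and 13.7 FPKM in CCI and 14.7, 12.7 and 12.5 FPKM in Sham. CCI 2 was highest for both, and the ratio of Col6a1 to Col6a2 was 1.05 ± 0.0897 in CCI and 1.21 ± 0.124 in Sham (SD, n = 3). Col6a5 was at 2.58, 2.09 and 2.84 FPKM in CCI and 3.15, 2.87 and 2.53 FPKM in Sham, and it has 3 further unclassified entries that held 41 to 163 counts in a library.

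Col6a6, the neighbour of Col6a5 on chromosome 8, had the highest estimate among the tested collagens. It was at 3.87, 4.53 and 4.46 FPKM in CCI and 4.07, 3.07 and 2.21 FPKM in Sham. The groups overlapped because Sham 1 lay within the CCI range, and the log2 fold change was 0.45 (SE 0.21, interval -0.05 to 0.94, unadjusted p = 0.0705, adjusted p = 0.519 in edgeR). Without Sham 1 it was 0.68 with an unadjusted p of 0.00673 in the same model, past both limits, where 2.77% of all entries were called higher. Without Sham 3 it was 0.25. The third gene of this cluster, Col6a4, was at 0.0199, 0.0303 and 0.0569 FPKM in CCI and 0.0233, 0.0727 and 0.0329 FPKM in Sham and was not tested.

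Among the FACIT collagens, which bind to the surface of fibrils, Col16a1 (chr5:148256912-148311647, plus strand) had the lowest p. It was at 17.9, 16.3 and 13.2 FPKM in CCI and 12.3, 11.5 and 12.3 FPKM in Sham. Every CCI library lay above every Sham library, with means of 15.8 ± 2.39 FPKM in CCI against 12.03 ± 0.433 FPKM in Sham (SD, n = 3), and CCI 3 stood close to the Sham range. The log2 fold change was 0.37 (SE 0.12, interval 0.10 to 0.65, unadjusted p = 0.0156, adjusted p = 0.325 in edgeR's quasi-likelihood test), under the fold limit. The lowest and highest values over the alternative settings were 0.27 and 0.49. DESeq2 gave 0.37 with an adjusted p of 0.103. Without both CCI 1 and Sham 1, a pair chosen after the data were seen, the value was 0.28 (edgeR unadjusted p = 0.0738).

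The large FACIT members Col12a1 and Col14a1, which tune fibril spacing, were close in level. Col12a1 was at 8.31, 12.3 and 11.1 FPKM in CCI and 12.7, 9.25 and 10.7 FPKM in Sham, and Col14a1 at 8.75, 10.6 and 11.6 FPKM in CCI and 11.7, 11.1 and 10.8 FPKM in Sham. CCI 1 was lowest and Sham 1 highest for both. The type IX chains, partners of type II fibrils in cartilage, were present at low level, with Col9a2 at 3.01, 2.36 and 2.77 FPKM in CCI and 2.33, 2.19 and 2.62 FPKM in Sham and Col9a3 at 5.82, 6.04 and 6.35 FPKM in CCI and 6.16, 6.06 and 3.83 FPKM in Sham. Their groups overlapped. Col9a1 was at 0.502, 0.0745 and 0.176 FPKM in CCI and 0.186, 0.615 and 0.909 FPKM in Sham and was below the level for testing, the 6 libraries ranging from 25 to 318 counts.

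Col19a1, found in developing muscle and in interneurons, was at 0.972, 0.788 and 0.692 FPKM in CCI and 0.827, 1.12 and 1.07 FPKM in Sham. Col22a1, a component of muscle and tendon junctions, was at 0.625, 0.582 and 0.699 FPKM in CCI and 0.708, 0.609 and 0.445 FPKM in Sham, and neither separated the groups. Col22a1 was highest in Sham 1, the library with the most skeletal muscle marker counts, and the part of that tissue in its value was not tested. Col20a1 shares its entry with Arfgap1, so its level of 3.21, 3.48 and 2.03 FPKM in CCI and 3.39, 2.00 and 3.18 FPKM in Sham cannot be assigned to it alone.

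The multiplexins Col15a1 and Col18a1 lie in or beside basement membranes, and endostatin is released from the protein of Col18a1. Col15a1 was at 5.07, 7.65 and 7.19 FPKM in CCI and 4.48, 5.41 and 5.77 FPKM in Sham, with a log2 fold change of 0.33 (SE 0.17, unadjusted p = 0.102, adjusted p = 0.582 in edgeR) and overlapping groups. Col18a1 was at 6.65, 7.46 and 6.71 FPKM in CCI and 6.58, 6.42 and 5.95 FPKM in Sham. Its groups did not overlap, but by a margin smaller than the SD of either group, and its log2 fold change was 0.12 (SE 0.07, interval -0.05 to 0.29). Counting both with type IV gave a median of 0.01 for 7 tested genes.

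The short-chain collagens form hexagonal lattices, as in Descemet's membrane and in hypertrophic cartilage. Col8a1 was at 2.48, 4.88 and 4.76 FPKM in CCI and 6.47, 4.69 and 4.96 FPKM in Sham, the lowest estimate after Col2a1 at -0.43 (SE 0.27, unadjusted p = 0.157, adjusted p = 0.659 in edgeR). CCI 1 carried much of it, since the value was -0.18 without that library. Without both CCI 1 and Sham 1, a pair chosen after the data were seen, the value for Col8a1 was -0.03. Col8a2 was at 5.55, 6.81 and 7.07 FPKM in CCI and 6.45, 5.19 and 5.19 FPKM in Sham, and Col10a1 at 1.27, 1.49 and 1.48 FPKM in CCI and 1.07, 1.02 and 1.52 FPKM in Sham. A second, unclassified entry under Col8a2 with more counts ran the opposite way, at 5.93, 5.84 and 6.53 FPKM in CCI and 6.71, 7.01 and 6.71 FPKM in Sham (log2 fold change -0.18, edgeR unadjusted p = 0.0363, adjusted p = 0.421), so the direction for Col8a2 depended on the entry taken.

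The transmembrane collagens sit in the plasma membrane and can be shed. Col23a1 was at 4.93, 4.83 and 5.31 FPKM in CCI and 5.47, 4.58 and 6.45 FPKM in Sham, and Col25a1, which is made by neurons and deposited in amyloid plaques, at 1.76, 2.00 and 1.58 FPKM in CCI and 2.20, 1.90 and 2.14 FPKM in Sham. Both estimates were below 0, -0.15 and -0.24, with unadjusted p of 0.293 and 0.0992 in edgeR and overlapping groups. Col13a1, found at the neuromuscular junction, was at 0.248, 0.227 and 0.380 FPKM in CCI and 0.325, 0.209 and 0.333 FPKM in Sham, and Col17a1, a hemidesmosome protein of epithelia, at 0.137, 0.157 and 0.0514 FPKM in CCI and 0.0861, 0.157 and 0.104 FPKM in Sham. Col28a1, a collagen found mostly in peripheral nerve and its glia, was at 8.11, 6.52 and 7.02 FPKM in CCI and 7.28, 7.74 and 5.61 FPKM in Sham, with a log2 fold change of 0.05 (SE 0.14). Col26a1, a scarce gene in these libraries, was at 0.103, 0.166 and 0.316 FPKM in CCI and 0.208, 0.0413 and 0.247 FPKM in Sham.

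Col7a1 (chr8:117694605-117726844, plus strand) encodes the anchoring fibril that ties epithelial basement membranes to the tissue beneath. It was too scarce for the main test, at 0.346, 0.266 and 0.291 FPKM in CCI and 0.142, 0.138 and 0.105 FPKM in Sham, which corresponded to 283, 215 and 222 counts in CCI and 125, 111 and 89 counts in Sham. Every CCI library lay above every Sham library, and the means stood in a ratio of 2.35. In a fit with no limit on the level, over 35757 entries, its log2 fold change was 1.22 (SE 0.21, unadjusted p = 0.000748, adjusted p = 0.140 in edgeR's quasi-likelihood test). In that fit 1 of the 42 genes, Col7a1, was called higher, beside 2.54% of all entries, and it missed the adjusted threshold.

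Groups that did not overlap were counted over the tested genes as a whole. They were 3 of 35, Col2a1, Col16a1 and Col18a1, against 17.3% of all tested entries. The smallest p that an exact permutation test of 3 libraries against 3 can give is 0.1.

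**Figure D4:**
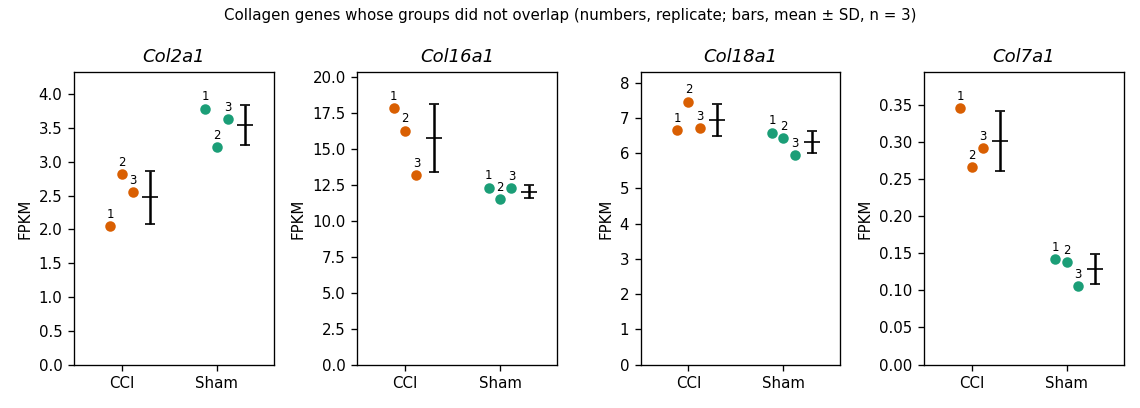
FPKM of Col2a1, Col16a1, Col18a1 and Col7a1 in each library, with the mean ± SD of the 3 libraries of each group. CCI points lie below the Sham points for Col2a1 and above them for the other genes, and Col7a1 reaches 0.346 FPKM at most.

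Of the 42 genes 33 matched a RefSeq promoter window, and the windows of Col1a1, Col2a1 and Col3a1 were not among them. The median GC content was 59.7% in the 33 windows and 51.7% in all 33469. A GC box (GGGCGG, either strand) was present in 19 of 33 windows, 57.6%, beside 33.1% of all windows, and a CCAAT box in 10, 30.3%, beside 37.5%. A TATA box (TATAAA) was present in 3, 9.09%, beside 14.2%. The AP-1 letters TGANTCA stood in 1, that of Col6a1, 3.03% beside 7.33%, and the cyclic AMP element TGACGTCA in 1, that of Col24a1, 3.03% beside 1.83%. A match describes letters in the window and no binding was measured. Each motif was counted on its own, also where matches overlapped. The Col4a1 and Col4a2 windows share 176 bases, and GC and CCAAT boxes in that stretch were counted for both genes.

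The windows of Col5a3, the abundant type V chain with the narrowest interval, of Col16a1 and of Col7a1 are shown so that the start regions of a closely measured gene and of genes with every CCI library above every Sham library can be read side by side. They lie in GRCr8 at chr8:27625899-27626198 on the minus strand, chr5:147672846-147673145 on the plus strand and chr8:118483114-118483413 on the plus strand. Capitals mark CCAAT and GC boxes as above.
Col5a3: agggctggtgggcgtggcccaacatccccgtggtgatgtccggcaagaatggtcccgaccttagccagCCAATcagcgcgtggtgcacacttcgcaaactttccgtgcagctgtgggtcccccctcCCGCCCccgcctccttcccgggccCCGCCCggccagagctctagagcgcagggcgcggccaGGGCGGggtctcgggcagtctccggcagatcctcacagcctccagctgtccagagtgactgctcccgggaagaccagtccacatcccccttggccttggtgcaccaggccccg
Col16a1: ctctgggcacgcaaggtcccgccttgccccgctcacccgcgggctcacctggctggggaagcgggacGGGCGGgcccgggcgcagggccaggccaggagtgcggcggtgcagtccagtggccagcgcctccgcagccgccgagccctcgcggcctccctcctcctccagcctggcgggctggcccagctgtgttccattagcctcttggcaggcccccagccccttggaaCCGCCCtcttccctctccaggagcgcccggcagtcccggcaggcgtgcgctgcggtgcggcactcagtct
Col7a1: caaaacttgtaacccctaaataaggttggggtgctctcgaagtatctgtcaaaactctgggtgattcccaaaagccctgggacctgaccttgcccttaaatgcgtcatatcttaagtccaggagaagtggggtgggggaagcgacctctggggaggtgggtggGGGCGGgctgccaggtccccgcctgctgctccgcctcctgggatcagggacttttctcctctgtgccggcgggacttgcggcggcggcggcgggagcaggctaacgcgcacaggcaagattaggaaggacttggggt
The GC boxes of Col5a3 began 124, 100 and 63 bases before the start, those of Col16a1 183 and 20 bases before it, and that of Col7a1 87 bases before it. Col18a1 also had every CCI library above every Sham library. Its window is not shown, and its GC boxes began 63, 35 and 15 bases before the start.

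Genes that make, process and bind collagen were tested as a list of 80, of which 76 were found and 68 tested. In edgeR's quasi-likelihood test 3 were called higher, the complement genes C1qa, C1qb and C1qc, and 2 lower, Tll1 and Itga11, beside 2.57% of all tested entries called higher and 1.26% called lower, with 0 at an adjusted p under 0.05 beside 0.0938%. The C1q chains hold a collagen-like domain but belong to the complement system and are made by macrophages. C1qa was at 13.1, 10.03 and 7.33 FPKM in CCI and 3.14, 4.23 and 6.40 FPKM in Sham, C1qb at 12.9, 10.9 and 6.90 FPKM in CCI and 4.11, 4.53 and 5.29 FPKM in Sham and C1qc at 20.2, 16.1 and 13.0 FPKM in CCI and 7.91, 7.79 and 8.97 FPKM in Sham, with log2 fold changes of 1.13, 1.12 and 0.98 and adjusted p of 0.296, 0.199 and 0.124. All CCI libraries lay above all Sham libraries for the 3 genes, and the macrophage markers Cd68, Csf1r and Cx3cr1, 3 of 6 listed, were called higher too, with the list summing to 98.4, 89.1 and 72.9 CPM in CCI and 53.5, 51.7 and 64.2 CPM in Sham. Whether these transcripts rose per cell or through more macrophages cannot be told apart in bulk tissue, and the same holds for fibroblast and collagen transcripts.

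Tll1, a protease that trims the C-terminal propeptide of procollagens, was at 2.07, 2.39 and 2.83 FPKM in CCI and 3.69, 3.67 and 3.66 FPKM in Sham (log2 fold change -0.61, SE 0.12, edgeR adjusted p = 0.154). The groups did not overlap, whereas the related protease Bmp1 was at 7.03, 8.91 and 9.52 FPKM in CCI and 7.57, 7.79 and 7.49 FPKM in Sham. Itga11, an integrin subunit that binds fibrillar collagen, was at 0.543, 0.512 and 0.806 FPKM in CCI and 0.929, 1.16 and 0.828 FPKM in Sham (log2 fold change -0.67, SE 0.23, edgeR adjusted p = 0.383). Neither changed at the adjusted threshold.

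The medians of the groups with a call were -0.08 over 6 tested genes of procollagen cleavage, 0.11 over 8 receptors and 0.06 over 13 collagen-domain proteins of other families. Among the receptors Itgb1, the common partner of the collagen-binding integrins, was at 124, 126 and 114 FPKM in CCI and 96.2, 93.6 and 92.4 FPKM in Sham, with every CCI library above every Sham library and a log2 fold change of 0.35 that was under the fold limit (SE 0.06, edgeR adjusted p = 0.109). No other group of the list had a call in either direction in edgeR's test, and P4ha1, P4hb and Tinagl1 were the genes there with an unadjusted p under 0.05 at a smaller fold. These groups were the 17 tested genes of chain hydroxylation and folding (median log2 fold change -0.02), 4 of export (-0.08), 6 of crosslinking (0.04), 7 fibril-binding proteoglycans (-0.02) and 7 basement membrane partners (0.07). The collagen chaperone Serpinh1 was at 66.3, 73.1 and 77.8 FPKM in CCI and 62.1, 86.6 and 74.5 FPKM in Sham, the lysine crosslinker Lox at 2.75, 3.16 and 2.95 FPKM in CCI and 3.96, 2.27 and 3.46 FPKM in Sham, and the small proteoglycan Dcn at 138, 258 and 218 FPKM in CCI and 208, 204 and 199 FPKM in Sham. The groups overlapped for all 3. The symbols Crtap, Mia3, Pcolce2 and Hspg2 were not analysed here.

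CCI 1 was the lowest library for 13 of the 35 tested collagen genes, against 20.3% of all tested entries, and Sham 1 the highest for 10, against 15.4%. By class CCI 1 was lowest for 4 of 10 fibrillar, 4 of 5 type IV and 5 of 20 other genes. Among fibroblast markers other than collagens CCI 1 was lowest for 7 of 10. Their sum was 708, 1219 and 965 CPM in CCI and 1007, 951 and 904 CPM in Sham, and 0 of 10 were called, or reached an unadjusted p under 0.05, in edgeR's test. In CCI 1 Col1a1 stood at 62.4% and Col3a1 at 62.9% of the Sham mean, beside 67.7% for Dcn and 69.2% for Lum, whereas Col5a3 stood at 102% and Col4a1 at 92.0%. Col3a1 over Dcn was 0.809 ± 0.0138 in CCI and 0.884 ± 0.0473 in Sham (SD, n = 3), with every CCI ratio under every Sham ratio. Col1a1 over Dcn overlapped at 0.657 ± 0.0765 in CCI and 0.759 ± 0.0583 in Sham, and Col1a1 over Lum overlapped at 2.63 ± 0.447 in CCI and 2.96 ± 0.524 in Sham. Of the other ratios computed, that of Col6a5 to Col6a6 also separated the groups, at 0.588 ± 0.111 in CCI and 0.951 ± 0.185 in Sham (SD, n = 3). The rest overlapped. The ratios were of picked genes, and how often ratios of other genes separate the groups was not computed. The Schwann cell markers Mbp, Pmp22, Prx, Mag and Scn7a summed to 3888, 4083 and 4648 CPM in CCI and 4655, 4934 and 3996 CPM in Sham. CCI 1 was lowest for 4 of these 5, all 5 had estimates below 0, and 0 reached an unadjusted p under 0.05 in edgeR's test. The part of fibroblast or Schwann cell content in the collagen values was not tested.

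**Figure D5:**
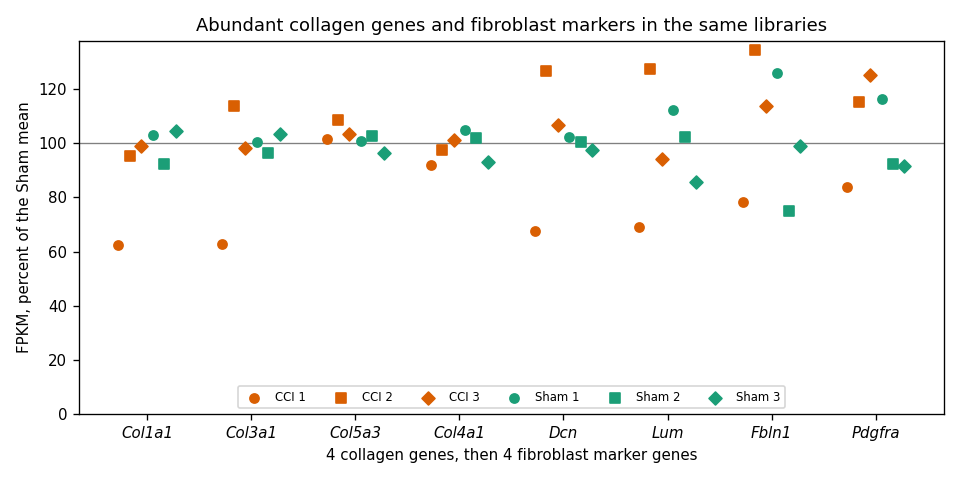
FPKM of 4 collagen genes and 4 fibroblast markers in each library as a percentage of the Sham mean of that gene, CCI in orange and Sham in green. CCI 1 is near 62% for Col1a1 and Col3a1 and under 70% for Dcn and Lum, whereas it is at 102% for Col5a3.

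Other cell types were followed with marker lists. No gene was called among 3 perineurial, 4 endothelial, 6 pericyte, 5 satellite glia, 3 tendon and 5 meningeal markers tested in edgeR, although Slc2a1, Itgb4, Acta2, Cdh19 and Crabp2 had an unadjusted p under 0.05 at a smaller fold. The meningeal gene Ptgds varied within both groups, at 25.6, 107 and 156 FPKM in CCI and 119, 25.6 and 29.2 FPKM in Sham. Of 7 tested skeletal muscle markers 5 were called lower in CCI, with Sham 1 alone far above the rest. Without CCI 1 and Sham 1, chosen after the data were seen, 1 collagen gene was called higher, Col6a6 at 0.74, and 1 lower, Col19a1 at -0.59. In that fit 2.42% of all tested entries were called higher and 1.29% lower.

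The genes whose profile over the 6 libraries was most like that of Col1a1, among 7560 non-collagen genes averaging 5 FPKM or more, were Tmem14a (Pearson r = 0.99), Psma3l (0.98), Ncstn (0.98), Trip11 (0.98) and Serpinf1 (0.98). Serpinf1, a secreted serpin that binds collagen, was at 11.2, 16.8 and 16.5 FPKM in CCI and 17.9, 15.9 and 16.6 FPKM in Sham. Like Col1a1 it was lowest in CCI 1. Within the collagens Col1a1 was most alike to Col8a1 (r = 0.95), Col3a1 (0.93) and Col14a1 (0.93), and for Col5a3 r was -0.10. These values are descriptions over 6 libraries, in which CCI 1 weighs heavily.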

How the data were processed

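RNA of the left L4 to L6 DRG of 3 CCI and 3 Sham rats was sequenced by the authors after ribosomal RNA depletion. The submitters' processing notes name HISAT2 2.0 and StringTie 1.3.0, and reads were mapped to the rat genome V101. The deposited counts are whole numbers of reads per gene entry and sample with no normalization. The deposited FPKM values were made by the authors from those counts, scaled by length and library total. Samples were grouped by the titles in the labels.

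The counts were fitted with edgeR 4.0.16 (R 4.3.3, TMM factors, glmQLFit and glmQLFTest) over the 26663 entries averaging 0.5 FPKM or more, with Benjamini-Hochberg adjustment over all of them. Calls used the study's limits, p under 0.05 before adjustment and 0.58 or more in absolute log2 fold change. DESeq2 1.42.0 and limma 3.58.1 were alternatives, as were other scalings, filters and left-out libraries. All collagen genes are named, and of the pathway list those called. Other pathway and marker genes, such as Bmp1, Itgb1, Serpinh1, Lox, Dcn, P4ha1, P4hb and Tinagl1, were named after their values were seen. The members, lists and named gene rule were chosen with earlier results of these data known. Neuronal injury markers were called higher in 5 of 5. Replicate libraries differed by more than sampling noise, with chi-square per degree of freedom between 57.3 and 84.2. Promoter windows came from RefSeq (GRCr8) and were not joined with the coordinates of the deposited table. Every numeric column of the samples was used. One listed marker gene is not reported here.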

Additional observations from a re-analysis of the deposited data

Results flagged for a closer look

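Col7a1, the anchoring fibril gene, lay under the mean FPKM needed for the main test and so outside its comparisons. Fitted with no limit on the level, its log2 fold change was 1.22 in edgeR's quasi-likelihood test (unadjusted p = 0.000748, adjusted p = 0.140). It was flagged for being higher in 3 of 3 CCI libraries than in any Sham library, so that separation is no further evidence. The other 6 genes under the limit had overlapping groups. Of all tested entries 17.3% had groups that did not overlap, and no such share was computed under the limit.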

How the results depend on the processing

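The count of collagen genes called higher was 0 except 1 with no filter (Col7a1), 1 without Sham 1 (Col6a6) and 1 without CCI 1 and Sham 1 (Col6a6), and leaving out 1 library at a time gave 0 to 1. Of all entries 2.54%, 2.77% and 2.42% were called higher in those fits, in that order. The count called lower was 0 except 1 without CCI 2 (Col2a1, -0.64), 1 without Sham 2 (Col2a1, -0.60) and 1 without CCI 1 and Sham 1 (Col19a1), with 0 to 1 over single libraries. Of all entries 1.38%, 1.22% and 1.29% were called lower in those fits, in that order. DESeq2 gave 1 gene at an adjusted p under 0.05 (Col2a1) and all other settings 0. At an unadjusted p under 0.05 with any fold, the count of 35 was 2 beside 10.7% of all entries, and 7 without CCI 1 and Sham 1 (9.27%), 5 without CCI 1 (9.16%), 4 without CCI 2 (9.23%) and 4 without Sham 1 (10%). Leaving out single libraries moved the median log2 fold change of fibrillar genes between -0.0538 (without Sham 3) and 0.0295 (without CCI 1), that of type IV genes between -0.1549 and 0.0295, and that of other genes between -0.0098 (without Sham 3) and 0.1373 (without Sham 1). These class medians thus had no settled sign, and the cause was not tested. Of the 35 tested genes, 15 changed sign under some setting, none of them called. With the replicate block, 0 genes were called higher, 0 lower and 0 at the adjusted threshold, and the class medians were 0.0323, -0.0619 and 0.0894. Deviations of same-numbered samples had correlations of -0.01, -0.03 and -0.06. With 3 libraries a group such values cannot exclude shared handling, and the numbers were taken to name samples only. The level of Col7a1 and the other 6 scarce genes limits what 3 libraries a group can show.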
